A study of Mus musculus with 2 samples.

Results

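The genes of pyruvate oxidation and the citric acid cycle described here are 31 of the 43346 annotated genes measured in G1E cells. They were chosen by name: the subunits of the pyruvate dehydrogenase complex, its kinases, pyruvate carboxylase, the cycle enzymes from citrate synthase to malate dehydrogenase, ATP citrate lyase, which acts on exported citrate, and the malic enzymes, which turn malate into pyruvate. All 31 names matched 1 row each of the gene tables. G1E is an immortalised mouse line of erythroid progenitors, which the labels call Gata1-, male, postnatal and 0 days old. It lacks a working GATA1, the transcription factor that drives red cell maturation, and every library shares that background. Poly(A)-selected RNA was sequenced in 2 libraries of 1 biosample, labelled biological replicates 1 and 2, without any named treatment or contrasting condition. Whether the cultures were separate is not stated, so the spread between the libraries may be technical, and no test between conditions was possible.

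Pyruvate from glycolysis enters the mitochondrion and is turned into acetyl-CoA by the pyruvate dehydrogenase complex, which PDH kinases switch off by phosphorylation. Acetyl-CoA joins oxaloacetate to form citrate, and the cycle then returns to oxaloacetate while it yields reducing equivalents for respiration, a nucleoside triphosphate and building blocks. In erythroid cells succinyl-CoA from this cycle is also the starting material of haem synthesis, and exported citrate supplies acetyl-CoA for lipids and for histone acetylation.

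Replicate 1 held 31645051 expected counts, the estimated reads per gene, and replicate 2 held 56983558. The deposited lengths imply 36-nt reads for replicate 1, against 55-nt reads for replicate 2. All 8 listed erythroid progenitor markers were high, between 89.5 and 764 TPM in replicate 1 and between 96.7 and 363 TPM in replicate 2. TPM is a count divided by effective transcript length, scaled so that each library sums to a fixed total. The 16 markers of other cell types summed to 6.57 TPM in replicate 1 and 0.55 TPM in replicate 2, with a highest value of 1.68 TPM in replicate 1, against 0.25 TPM in replicate 2, and 3 of them in replicate 1 and 8 in replicate 2 were listed at 0.00 TPM. Gata1 RNA was present, with 88.2 TPM in replicate 1, against 61.4 TPM in replicate 2. How the gene was disrupted is not in the labels, so that level does not check the Gata1- label.

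The pathway was expressed almost whole. At a threshold of 1 TPM in both libraries, 30 of the 31 genes were expressed, against 24.2% of all annotated genes and 42.5% of protein-coding genes. The exception was Pdk4. The median over the 31 genes of the mean TPM was 83.3, against 23.5 for protein-coding genes that passed the same threshold, and 26 of the 31 lay above that value. Within a library the median was 70.5 TPM in replicate 1 and 76.5 TPM in replicate 2 for the pathway, and 23.1 TPM in replicate 1 and 22.5 TPM in replicate 2 for the expressed protein-coding genes. The 31 genes together took 0.478% of the annotated counts of replicate 1 and 0.467% of those of replicate 2. These are levels in bulk RNA, in which fewer cells of a type and less RNA per cell cannot be told apart.

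**Figure D1:**
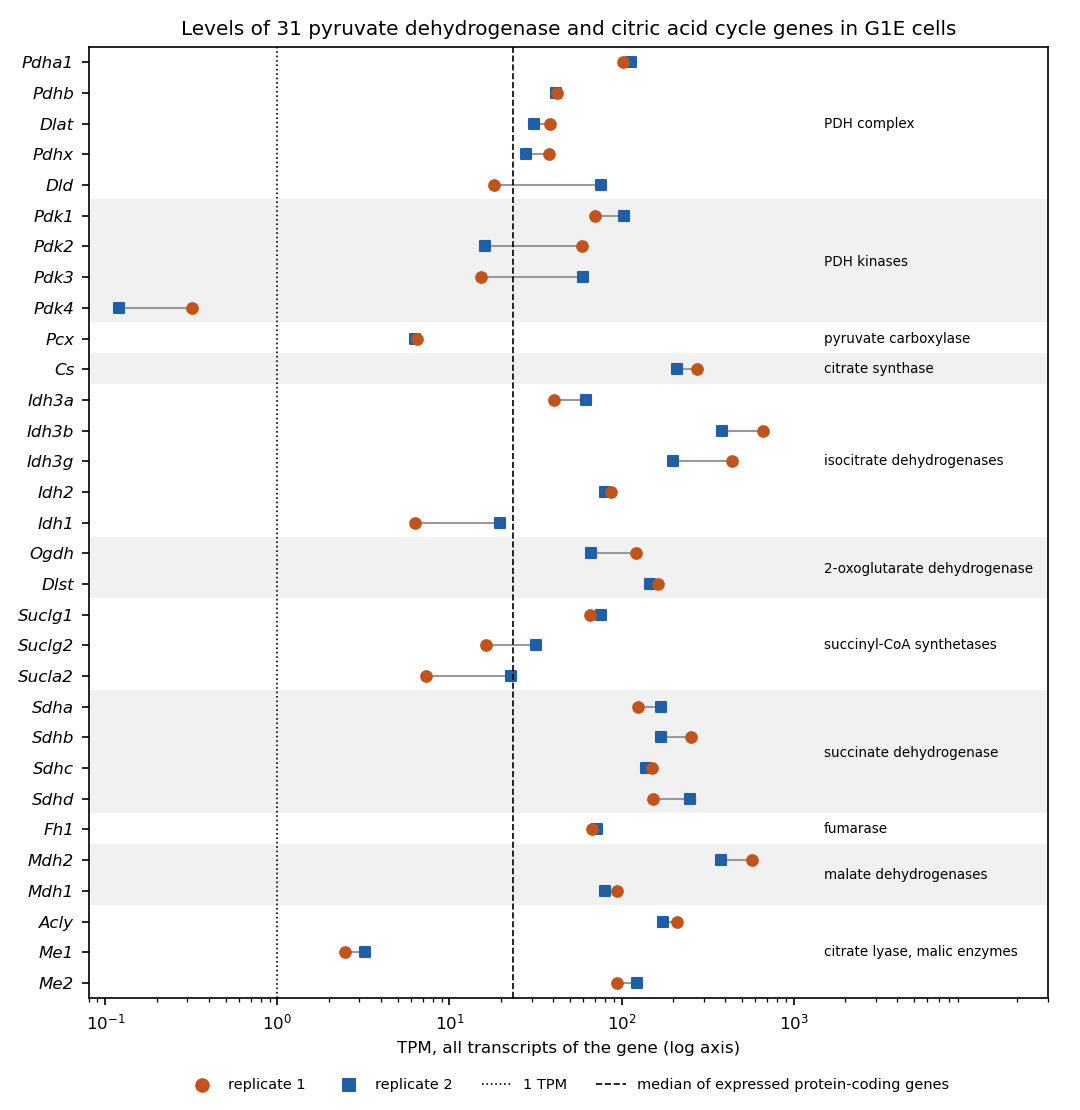
Level of each of the 31 genes in TPM on a log axis, grouped by pathway step from pyruvate entry at the top to citrate lyase and the malic enzymes at the bottom. Circles are replicate 1, squares are replicate 2, the dotted line is 1 TPM and the dashed line is the median of 23.5 TPM over expressed protein-coding genes. Pdk4 is the gene left of the dotted line in both libraries, and Dld, Pdk2, Pdk3, Idh1 and Sucla2 have widely spaced points.

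Levels ran over a wide range. Idh3b led at 524 ± 197 TPM (SD, n = 2), followed by Mdh2 at 475 ± 134 TPM and Idh3g at 319 ± 167 TPM (SD, n = 2 for both). At the low end were Pcx at 6.41 ± 0.092 TPM, Me1 at 2.85 ± 0.54 TPM and Pdk4 at 0.22 ± 0.14 TPM (SD, n = 2 for each). To say which genes differed beyond the libraries' own spread, differences of log2(TPM + 1) were set beside 1.23, a 95% bound for a mean over the 2 libraries. It comes from the normal distribution and the SD between libraries of 0.63, pooled over 10469 expressed genes, and corresponds to 2.35-fold. Of the 30 gaps between neighbours in the order of levels, 29 lay within that bound, and the gap of 1.66 between Me1 and Pdk4 lay beyond it. Among all 465 pairs of the 31 genes, 299 differed beyond the bound, and pairs of other genes were not counted. Apart from that gap, the order over all transcripts is therefore resolved against this spread between many distant ranks and not between adjacent ones. The bound does not cover the choice of transcripts. On transcripts annotated as protein-coding with a full reading frame alone, Idh3b moved from rank 1 to rank 12. Pdk1 moved from rank 14 to rank 28.

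Genes coding for the PDH complex were all expressed, with the E1 alpha subunit highest. Pdha1, which encodes that catalytic subunit, had 102 TPM in replicate 1 and 113 TPM in replicate 2. Pdhb, the E1 beta partner, had 42.3 TPM in replicate 1 and 41.6 TPM in replicate 2. Both libraries thus placed Pdhb below Pdha1, with a log2 difference of -1.34 ± 0.12 (SD, n = 2), beyond the bound. Part of the Pdha1 level sat on Pdha1-202, a 629-nt retained-intron transcript with 47.0% of the TPM in replicate 1 and 28.7% in replicate 2. On complete coding transcripts alone, those annotated as protein-coding with a full reading frame, Pdha1 had 52.7 TPM in replicate 1, against 78.4 TPM in replicate 2. The Pdhb/Pdha1 difference was then -0.61, within the bound of 1.12 for that measure. Of the exonic bases of Pdha1, 16.1% lie opposite exons of Map3k15 on the other strand. Of its 36-base words, matched on either strand, 14.8% occur in another gene. Map3k15 shares the most of these words, so the shares of bases and of words overlap. For Pdhb, whose exons no other gene overlaps, 15.9% of the words occur in another gene. Both levels thus carry uncertainty from shared words.

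Dlat, the E2 acetyltransferase core, had 38.2 TPM in replicate 1 and 30.95 TPM in replicate 2. Pdhx, the E3-binding protein that anchors E3 to the core, had 37.96 TPM in replicate 1, against 27.9 TPM in replicate 2. The 2 core genes differed by 0.08 ± 0.10 (log2; SD, n = 2), within the bound. For Pdhx most of that level was not on the complete coding transcript: Pdhx-203, a 655-nt transcript with an incomplete reading frame, took 76.8% in replicate 1 and 50.9% in replicate 2. On complete coding transcripts Pdhx was the lowest gene of the complex, at 8.80 TPM in replicate 1, against 13.7 TPM in replicate 2, and Dlat exceeded it by 1.06 ± 0.54 (log2; SD, n = 2), within the 1.12 bound.

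Dld, the E3 dihydrolipoamide dehydrogenase that the PDH, 2-oxoglutarate dehydrogenase and branched-chain complexes share, was the least reproducible gene of the complex. It had 18.2 TPM from 936 counts in replicate 1 and 76.5 TPM from 7583 counts in replicate 2. The libraries disagree on its rank: it was the lowest PDH gene in replicate 1 and second to Pdha1 in replicate 2. The Dld/Dlat difference had opposite signs, -1.03 in replicate 1 and 1.28 in replicate 2. Dld has a single quantified transcript, so its deposited level is not divided among transcripts. GENCODE M21 gives the gene 3683 exonic bases, against 2241 nt for that transcript, and the effect of other forms was not tested. Across the 5 genes the highest level was 5.61 times the lowest in replicate 1 and 4.06 times in replicate 2.

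Of the 4 kinases that phosphorylate and silence E1 alpha, 3 were expressed and Pdk4 was not. Pdk1 had 70.5 TPM in replicate 1 and 104 TPM in replicate 2. Pdk2 had 59.0 TPM in replicate 1 and 16.0 TPM in replicate 2, whereas Pdk3 had 15.2 TPM in replicate 1, against 59.99 TPM in replicate 2. The libraries therefore put Pdk2 and Pdk3 in opposite orders, with a difference Pdk3 minus Pdk2 of -1.89 in replicate 1 and 1.84 in replicate 2 on the log2 scale. Pdk4, the kinase that rises with fasting and fatty acid use in muscle and liver, had 0.32 TPM from 26 counts in replicate 1 and 0.12 TPM from 19 counts in replicate 2. Those values lie inside the range of the markers of other cell types in each library.

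Of the 31 genes Pdk1 had the smallest part of its level on complete coding transcripts. Pdk1-201, its complete coding transcript of 5185 nt, took 9.69% of the TPM in replicate 1 and 10.2% in replicate 2, which comes to 6.83 TPM, against 10.6 TPM. Most of the rest lay on transcripts annotated as processed and non-coding. Of these the 2972-nt Pdk1-208 led in replicate 1 at 39.4%, and the 327-nt Pdk1-202 led in replicate 2 at 53.2%. By counts rather than TPM, Pdk1-208 led in both libraries, with 58.5% of them in replicate 1, against 50.1% in replicate 2. Summed over all transcripts, Pdk1 exceeded Pdk2 by 1.44 ± 1.68 and Pdk3 by 1.46 ± 0.96 (log2; SD, n = 2 for both). The difference from Pdk2 was 0.25 in replicate 1 and 2.62 in replicate 2, so replicate 2 carried most of it. On complete coding transcripts both differences reversed, to -1.43 ± 1.42 against Pdk2 and -1.53 ± 0.68 against Pdk3 (SD, n = 2 for both). Which expressed kinase gene is highest thus depends on the transcripts that are counted. The gene lies at chr2:71873224-71903858 on the plus strand of GRCm38.

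**Figure D2:**
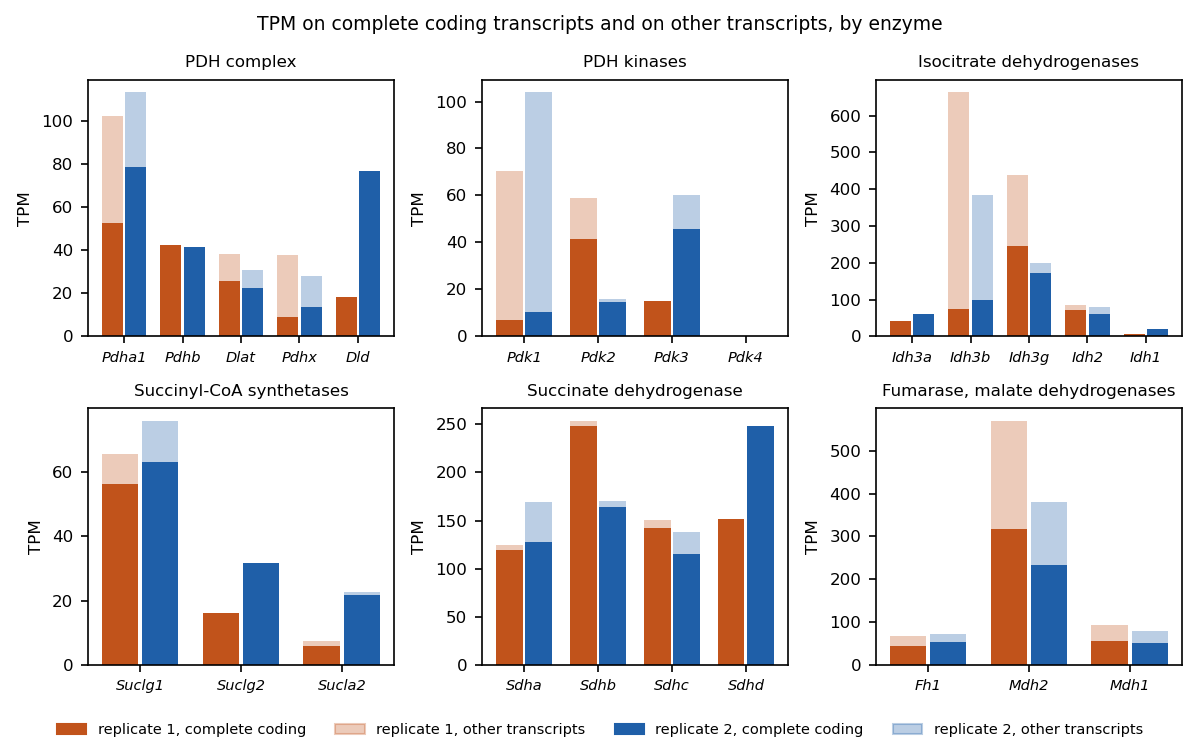
TPM of the genes of 6 enzyme groups, replicate 1 left and replicate 2 right for each gene, with the part on complete coding transcripts in full colour and the part on all other transcripts pale. Most of the bar is pale for Pdhx, Pdk1 and Idh3b in both libraries, whereas Pdhb, Dld, Idh3a, Suclg2 and Sdhd have no pale part.

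Pyruvate carboxylase, which makes oxaloacetate from pyruvate and so refills the cycle, was expressed far below Pdha1, the highest PDH gene. Pcx had 6.47 TPM in replicate 1 and 6.34 TPM in replicate 2, from 622 and 1176 counts. Its log2 difference from Pdha1 was -3.87 ± 0.12 (SD, n = 2), and -3.14 on complete coding transcripts, both beyond the bound. Cs, the citrate synthase that joins acetyl-CoA and oxaloacetate, had 275 TPM in replicate 1 and 209.8 TPM in replicate 2 on its single quantified transcript. It ranked 4 of the 31 genes by level. Of its 36-base words 4.30% occur in another gene, among them the related Csl.

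Summed over all transcripts, the isocitrate dehydrogenases held the widest contrast between subunits of 1 enzyme. NAD-dependent IDH3, the cycle enzyme, has a catalytic alpha subunit and the beta and gamma subunits. Idh3a, the alpha subunit gene, had 40.7 TPM in replicate 1 and 62.1 TPM in replicate 2. Idh3b had 663 TPM in replicate 1, against 385 TPM in replicate 2, and Idh3g had 437 TPM in replicate 1, against 200.4 TPM in replicate 2. The beta and gamma genes were above the alpha gene in both libraries, by 3.30 ± 0.98 and 2.53 ± 1.22 on the log2 scale (SD, n = 2 for both), both beyond the bound.

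Most of the Idh3b level came from a short transcript. Idh3b-204, 452 nt long and annotated as a target of nonsense-mediated decay, took 87.9% of the TPM in replicate 1 and 72.0% in replicate 2, from 5682 counts and 4999 counts. Idh3b-201, the 1616-nt complete coding transcript, took 11.4% in replicate 1 and 25.5% in replicate 2, from 2799 counts and 6940 counts. The smaller transcript therefore led by TPM in both libraries, and by counts in replicate 1 but not in replicate 2. On complete coding transcripts Idh3b had 75.8 TPM in replicate 1, against 98.0 TPM in replicate 2, and its difference from Idh3a was 0.77 ± 0.16 (log2; SD, n = 2), within the bound. Idh3g behaved otherwise. Its coding level of 246 TPM in replicate 1 and 173 TPM in replicate 2 stayed 2.01 ± 0.78 above Idh3a (log2; SD, n = 2), beyond the bound. A 395-nt non-coding transcript, Idh3g-207, held 36.2% of Idh3g in replicate 1 and 0.45% in replicate 2. Idh3b lies at chr2:130279309-130284547 on the minus strand, Idh3g at chrX:73778963-73786897 on the minus strand and Idh3a at chr9:54586334-54604661 on the plus strand of GRCm38.

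Of the NADP-dependent enzymes, the mitochondrial one dominated. Idh2 had 86.3 TPM in replicate 1 and 80.4 TPM in replicate 2. Idh1, its cytosolic and peroxisomal counterpart, had 6.28 TPM from 332 counts in replicate 1 and 19.6 TPM from 1986 counts in replicate 2. Idh2 exceeded Idh1 in both libraries, by 2.78 ± 1.13 on the log2 scale (SD, n = 2), and by 2.44 on complete coding transcripts. Idh1-201 carried 89.5% of the Idh1 level in replicate 1 and 85.8% in replicate 2. Idh2 and Idh3a differed by 0.72 ± 0.49 (log2; SD, n = 2), within the bound.

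Genes of 2-oxoglutarate dehydrogenase, which makes the succinyl-CoA that haem synthesis draws on, were well expressed. Ogdh, the E1 subunit, had 121 TPM in replicate 1 and 66.0 TPM in replicate 2. Dlst, the E2 succinyltransferase, had 162 TPM in replicate 1, against 146.5 TPM in replicate 2. The Ogdh/Dlst difference of -0.78 ± 0.51 (log2; SD, n = 2) was within the bound. Dld, the shared E3, was the lowest gene of this complex in replicate 1, at 8.94-fold below Dlst, whereas Ogdh was the lowest in replicate 2, at 2.22-fold below Dlst.

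Ogdh is one of the genes whose transcripts differ in the coding region by the exon used after exon 3. Ogdh-201 uses a 103-nt exon 4, Ogdh-202 uses a 91-nt exon upstream of it instead, and Ogdh-203 has the exon of Ogdh-202 followed by a 45-nt exon 5. The exons are shown because they distinguish these coding forms, each found in both libraries. They are in capitals with 15 flanking transcript bases in lower case, from the GENCODE M21 transcripts of GRCm38. They lie on the plus strand at chr11:6316978-6317080, chr11:6316765-6316855 and chr11:6324878-6324922.
Ogdh exon 4 of Ogdh-201: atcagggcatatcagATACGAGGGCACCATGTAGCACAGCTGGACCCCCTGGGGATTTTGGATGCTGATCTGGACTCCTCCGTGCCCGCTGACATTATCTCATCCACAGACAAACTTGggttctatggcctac
Ogdh exon 4 of Ogdh-202: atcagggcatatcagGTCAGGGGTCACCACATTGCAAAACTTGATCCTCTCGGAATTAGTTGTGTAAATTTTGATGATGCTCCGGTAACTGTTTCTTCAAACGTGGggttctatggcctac
Ogdh exon 5 of Ogdh-203: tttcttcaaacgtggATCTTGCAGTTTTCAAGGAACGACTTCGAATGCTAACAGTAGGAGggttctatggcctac

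Ogdh-201, the form with the 103-nt exon, led in both libraries. Ogdh-201 held 77.4% of the Ogdh TPM in replicate 1 and 70.2% in replicate 2, from 8970 and 8566 counts. Ogdh-202 held 10.9% in replicate 1 and 22.04% in replicate 2, from 1255 and 2680 counts. Ogdh-203 held 9.75% in replicate 1 and 2.28% in replicate 2, from 1116 and 274 counts. The order of these 3 forms was the same in both libraries. The share of Ogdh-202 was smaller and that of Ogdh-203 larger in replicate 1 than in replicate 2. Ogdh-204, a further coding form of 4106 nt, held 0.0% in replicate 1. In replicate 2 it held 2.40%, from 291 counts, slightly above Ogdh-203.

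Succinyl-CoA synthetase, which makes ATP or GTP from succinyl-CoA, pairs a common alpha subunit with a beta subunit that sets the nucleotide. Suclg1, the alpha subunit gene, had 65.6 TPM in replicate 1 and 75.9 TPM in replicate 2. Suclg2, the GTP-specific beta gene, had 16.2 TPM in replicate 1 and 31.7 TPM in replicate 2. Sucla2, the ATP-specific beta gene, had 7.31 TPM from 243 counts in replicate 1 and 22.7 TPM from 2073 counts in replicate 2. Both libraries gave the order alpha above GTP-specific above ATP-specific. The alpha gene exceeded Suclg2 by 1.59 ± 0.51 and Sucla2 by 2.35 ± 0.92 (log2; SD, n = 2 for both), beyond the bound, whereas the beta genes differed by -0.76 ± 0.42, Sucla2 minus Suclg2, within it. Of the 36-base words of Suclg2, 19.2% occur in another gene. The leading Sucla2 transcript differed between the libraries, Sucla2-201 of 1545 nt with 67.1% in replicate 1 and Sucla2-203 of 2229 nt with 82.9% in replicate 2. Sucla2-203 had 48.4 counts in replicate 1 and 1855 counts in replicate 2, and Sucla2-201 had 173 counts in replicate 1 and 192 counts in replicate 2, so most of the difference in gene level sat on Sucla2-203.

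Succinate dehydrogenase, the cycle enzyme that is also respiratory complex II, had the most even genes among the enzymes here that have several subunits. Sdha, the flavoprotein that holds the active site, had 125 TPM in replicate 1 and 169 TPM in replicate 2. Sdhb, the iron-sulfur subunit, had 254 TPM in replicate 1, against 169.9 TPM in replicate 2. The membrane anchors followed, with Sdhc at 150.2 TPM in replicate 1, against 138 TPM in replicate 2, and Sdhd at 151 TPM in replicate 1, against 248 TPM in replicate 2. The highest of the 4 was 2.04 times the lowest in replicate 1 and 1.80 times in replicate 2, although the libraries differ in which gene was highest. None of the differences of Sdhb, Sdhc and Sdhd from Sdha went beyond the bound, at 0.51 ± 0.72, -0.01 ± 0.39 and 0.42 ± 0.19 (log2; SD, n = 2 for each). On complete coding transcripts the 4 genes spanned 2.08-fold in replicate 1 and 2.16-fold in replicate 2. Over all transcripts the corresponding span of the IDH3 genes was 16.3-fold in replicate 1 and 6.20-fold in replicate 2. On complete coding transcripts the IDH3 span was 6.03-fold in replicate 1 and 2.78-fold in replicate 2, so the contrast with succinate dehydrogenase was smaller there.

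Fumarase and malate dehydrogenase complete the cycle. Fh1, the fumarase gene, had 67.1 TPM in replicate 1, against 71.7 TPM in replicate 2, and its difference from Cs was -1.78 ± 0.34 (log2; SD, n = 2), beyond the bound. Mdh2, the mitochondrial malate dehydrogenase, had 570 TPM in replicate 1 and 380.3 TPM in replicate 2. Mdh1, the cytosolic enzyme of the malate-aspartate shuttle, had 94.0 TPM in replicate 1, against 79.7 TPM in replicate 2. The mitochondrial gene was higher in both libraries, by 2.41 ± 0.25 (log2; SD, n = 2), beyond the bound. This difference was nearly the same on complete coding transcripts, at 2.32 ± 0.21 (SD, n = 2), though each gene lost part of its level there. Mdh2-203, annotated as a target of nonsense-mediated decay, held 42.0% of Mdh2 in replicate 1 and 36.9% in replicate 2. By mean level on complete coding transcripts alone, Mdh2 and not Idh3b was the highest of the 31 genes, at 275 ± 59.5 TPM (SD, n = 2). It had 318 TPM in replicate 1, against 233 TPM in replicate 2, where Sdhd was above it at 248 TPM.

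Among the genes that draw on citrate and malate, Acly and Me2 were high and Me1 was low. Acly, the ATP citrate lyase that turns exported citrate into cytosolic acetyl-CoA, had 211 TPM in replicate 1 and 174 TPM in replicate 2. Its difference from Cs was -0.32 ± 0.08 (log2; SD, n = 2), within the bound. Me2, the mitochondrial NAD-dependent malic enzyme, had 94.1 TPM in replicate 1 and 123 TPM in replicate 2. Me1, the cytosolic NADP-dependent one, had 2.47 TPM from 188 counts in replicate 1 and 3.23 TPM from 474 counts in replicate 2. The mitochondrial form exceeded the cytosolic form in both libraries by 4.83 ± 0.07 (log2; SD, n = 2), well beyond the bound. Of the 36-base words of Me1, 34.5% occur in another gene, more than for any other of the 31, so its low level is uncertain.

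Acly also had more than 1 coding form. Acly-203 of 4426 nt includes a 30-nt coding exon 14 on the minus strand at chr11:100503160-100503189, which Acly-207, a form of 4162 nt with another first exon, skips. The exon is shown in capitals with its neighbours in lower case, and below it the same junction without the exon.
Acly exon 14 of Acly-203: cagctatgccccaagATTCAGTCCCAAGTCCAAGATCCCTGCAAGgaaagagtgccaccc
Acly junction of Acly-207: cagctatgccccaaggaaagagtgccaccc
Acly-203 held 49.3% of the Acly TPM in replicate 1 and 58.5% in replicate 2. Acly-207 held 18.2% in replicate 1 and 14.5% in replicate 2. The form with the exon was thus the larger of this pair in both libraries. Acly-202, a coding transcript of 1741 nt, held a further 30.2% in replicate 1 and 18.9% in replicate 2.

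**Figure D3:**
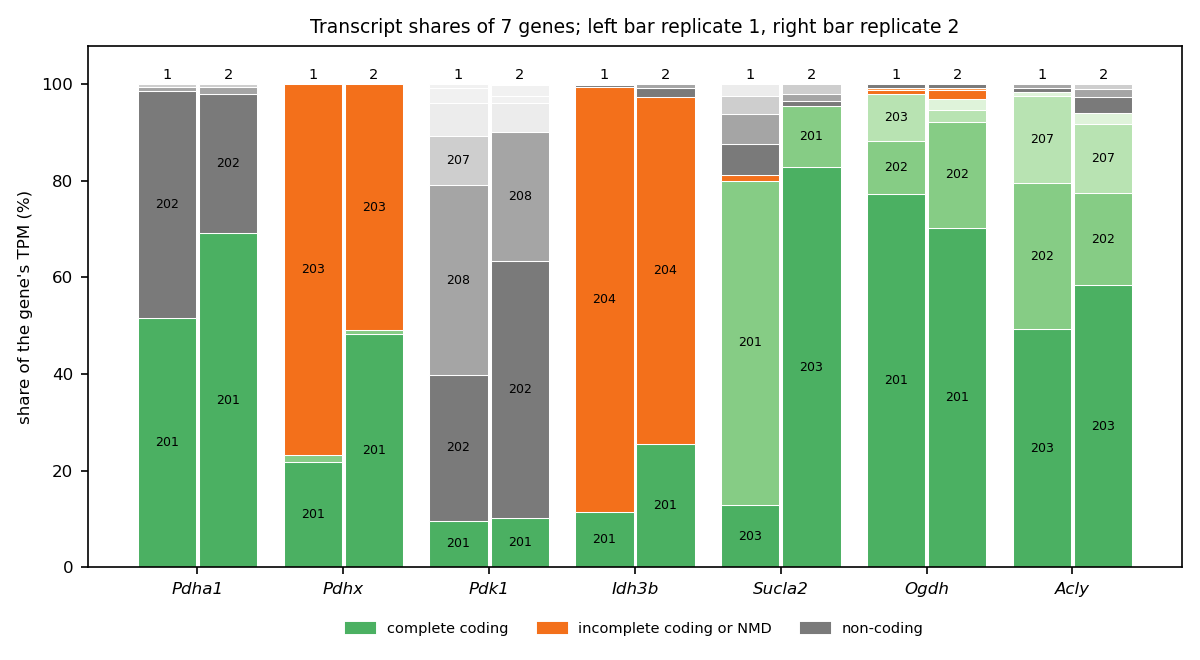
Share of a gene's TPM on each of its transcripts for 7 genes, left bar replicate 1 and right bar replicate 2. Green marks complete coding transcripts, orange those with an incomplete reading frame or annotated as targets of nonsense-mediated decay, and grey non-coding ones, with transcript numbers printed on shares of 7% or more. Idh3b-204 fills 87.9% of its bar in replicate 1 and 72.0% in replicate 2, and the leading form of Sucla2 changes between the libraries.

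Across the pathway the leading transcript was mostly reproducible. Of the 22 expressed genes with at least 2 quantified transcripts, 20 had the same leading transcript in both libraries. The other 2, Pdk1 and Sucla2, are 9.09%, against 30.7% of the 6807 protein-coding genes treated likewise. In 3 of the 22, Pdhx, Pdk1 and Idh3b, the leader in both libraries was not a complete coding transcript, against 15.5% of the 6807. By share of counts, which are not divided by length, this held in both libraries for 1 gene, Pdk1. Complete coding transcripts carried 67.1% of the summed TPM of the 31 genes in replicate 1 and 76.3% in replicate 2. In 6 genes, Pdha1, Pdhx, Pdk1, Idh3b, Mdh1 and Mdh2, they carried under 70% of the level in both libraries. How many other genes lie under 70% was not counted. The median share on complete coding transcripts over the 22 genes was 81.1% in replicate 1 and 79.5% in replicate 2. Over the 6807 protein-coding genes it was 75.1% in replicate 1 and 81.7% in replicate 2, so the 22 were near that background.

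Of the 23 pairs of partner genes set side by side, 13 differed beyond the bound and 20 had the same sign in both libraries. The 3 with opposite signs were Dld/Dlat, Pdk3/Pdk2 and Sdhc/Sdha. With complete coding transcripts alone 11 pairs were beyond their bound: Pdhb/Pdha1 and Idh3b/Idh3a were not, and the differences of Pdk1 from Pdk2 and from Pdk3 turned round. With replicate 2 alone, 8 pairs lay beyond the wider bound of 1.74 for a single library, and with replicate 1 alone 12 did.

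**Figure D4:**
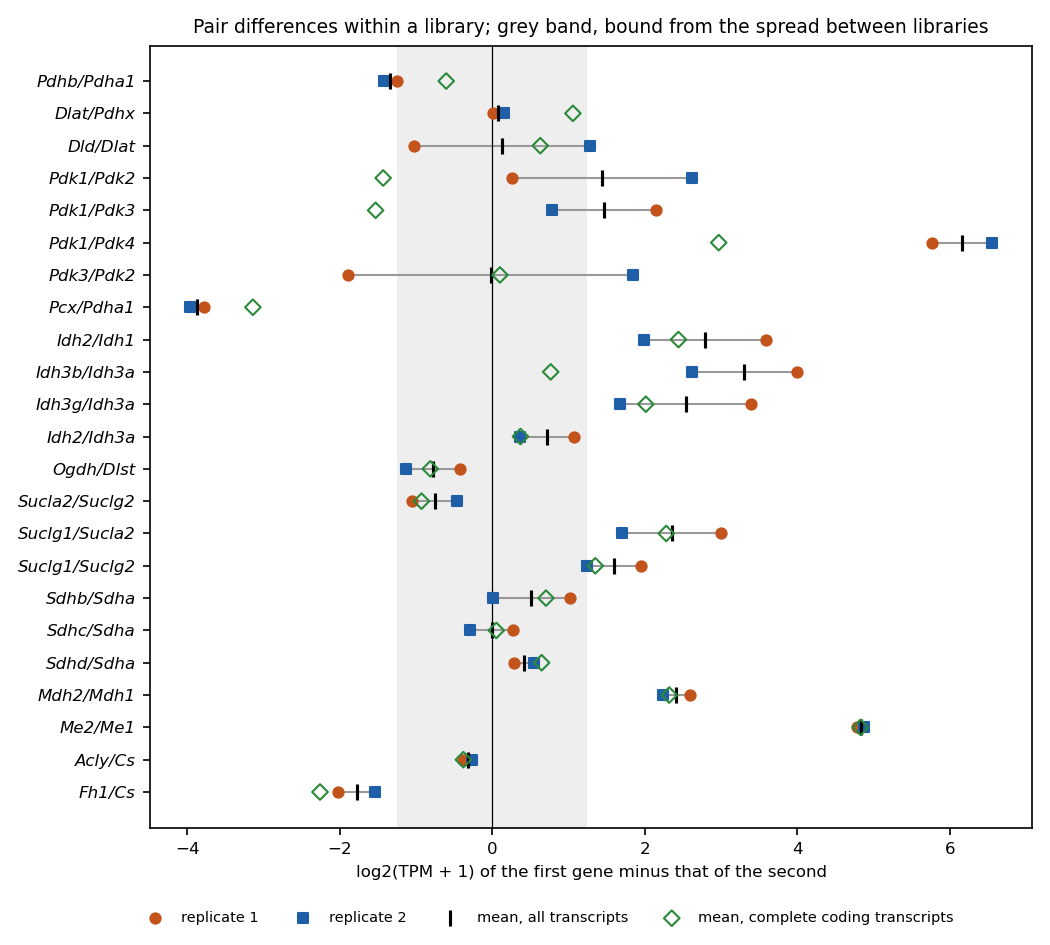
Difference of log2(TPM + 1) between the first and the second gene of 23 pairs, with replicate 1 as circles, replicate 2 as squares, their mean as a bar and the mean on complete coding transcripts as an open diamond. The grey band spans the bound of 1.23 to either side of 0. Me2/Me1 and Mdh2/Mdh1 are far outside it with close points, the Sdh pairs are inside it, and the diamonds of Pdk1/Pdk2 and Pdk1/Pdk3 lie on the other side of 0.

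How closely the libraries gave the same levels was asked with counts scaled by TMM, a normalisation that assumes most genes are equal. Called apart here means a 2-fold ratio or more among genes with at least 50 counts. Of the 30 genes with enough counts, all but Pdk4, 6 were apart, or 20%, against 32.5% of all annotated genes with enough counts and 22.6% of expressed protein-coding genes. This share is near the background of protein-coding genes. The scaling left expressed protein-coding genes at a median log2 ratio, replicate 1 over replicate 2, of -0.30, and these 30 genes followed at -0.33, so ratios are best read against that shift. Pdk2 was the gene higher in replicate 1, by 2.58-fold, where 10.2% of all genes were so called. Higher in replicate 2 were Sucla2 by 5.42-fold, Dld by 5.16-fold, Pdk3 by 3.85-fold, Idh1 by 3.80-fold and Suclg2 by 2.39-fold, where 22.3% of all genes were so called. Sdhd, at a log2 ratio of -0.997, lay just inside the threshold.

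Base composition moved with these ratios. GC content was taken from each gene's longest transcript, complete coding where there was one. It was 40.6% for Dld, 43.2% for Sucla2, 43.8% for Idh1, 44.4% for Suclg2 and 47.7% for Pdk3. The median over expressed protein-coding genes was 50.2%, and Pdk2 was at 56.9%. Across the 30 genes, which share the same 2 libraries and are not replicates, the ratio rose with GC content with a Spearman rho of 0.78, as it did across the 9110 expressed protein-coding genes with a rho of 0.52. With the trend of protein-coding genes subtracted, 5 of the 30 stayed 2-fold apart, or 16.7%, against 11.8% of protein-coding genes. The 5 were Pdk3 at -1.56, Sucla2 at -1.53, Idh1 at -1.10, Dld at -1.10 and Pdk2 at 1.30 on the log2 scale, and Suclg2 was at -0.51. The libraries also differ in implied read length and depth, and the part of those in the ratios was not tested.

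**Figure D5:**
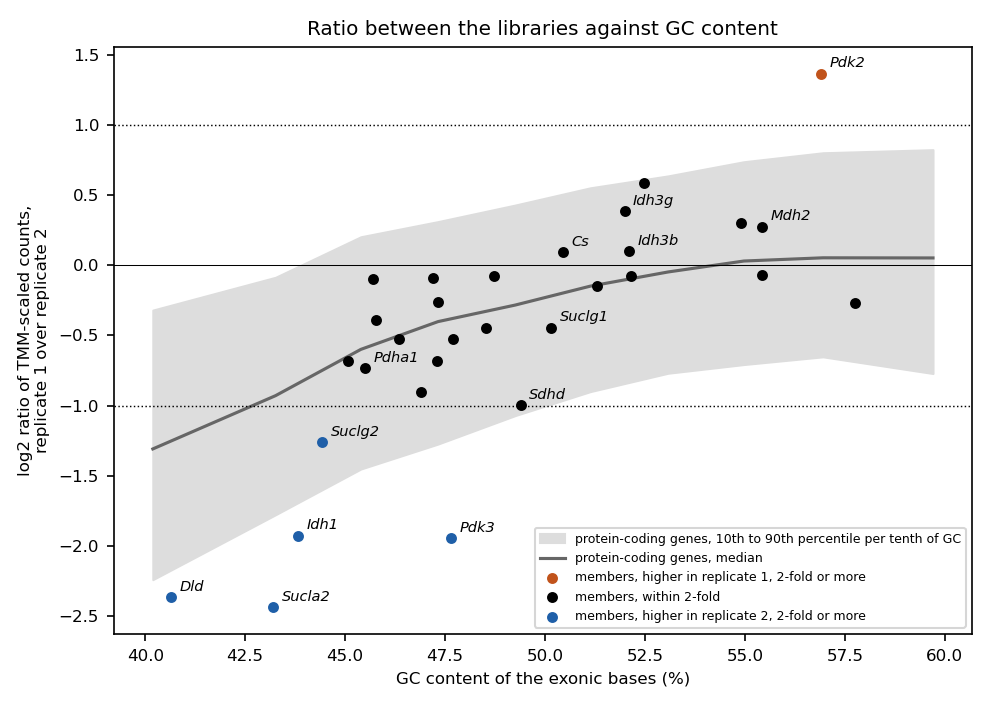
Log2 ratio of TMM-scaled counts, replicate 1 over replicate 2, against GC content for the 30 genes with at least 50 counts. The GC content is that of each gene's longest transcript, although the axis label says exonic bases. The grey band and line give the 10th to 90th percentile and the median of expressed protein-coding genes in bins of GC content, and dotted lines mark 2-fold. Pdk2 is above the upper dotted line, and Dld, Sucla2, Idh1, Pdk3 and Suclg2 are below the lower one, at GC contents from 40.6% to 47.7%.

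Most of the listed genes around the pathway were expressed as well. Of 10 genes that supply or regulate PDH, 9 were expressed. Among the highest were Mpc2, a subunit of the mitochondrial pyruvate carrier, at 29.3 TPM in replicate 1, against 51.1 TPM in replicate 2, and Lias, the lipoic acid synthase, at 26.2 TPM in replicate 1, against 22.7 TPM in replicate 2. Pdha2, the testis copy of E1 alpha, had 2 counts in replicate 1 and 0 in replicate 2, where 3 counts would be 0.0288 TPM. Of 12 other cycle and assembly genes, 8 were expressed. Aco1, a cytosolic enzyme that doubles as an iron sensor, had 174 TPM in replicate 1 and 143 TPM in replicate 2. Sdhaf2, which is needed to attach the flavin to the Sdha protein, had 29.2 TPM in replicate 1 and 28.4 TPM in replicate 2. Ogdhl, Dhtkd1, Me3 and Mdh1b were under 1 TPM in both libraries.

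Of 17 genes of entry to and exit from the cycle, 15 were expressed. Got2, the mitochondrial aspartate aminotransferase, had 277 TPM in replicate 1 and 259.6 TPM in replicate 2. Slc25a1, the carrier that exports citrate, had 161 TPM in replicate 1 and 131 TPM in replicate 2. Acss1, a mitochondrial acetyl-CoA synthetase, had 152 TPM in replicate 1 and 99.9 TPM in replicate 2. Gpt2, an alanine aminotransferase, and Pck1, the cytosolic enzyme of gluconeogenesis, were under 1 TPM in both.

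Promoter windows, 250 bases before to 50 after each annotated start, were available from RefSeq (GRCm38.p6) for 28 of the 31 genes, in 38 windows, which can overlap where a gene has several starts. They were searched on both strands for 5 motifs spelled out here. NRF1, the nuclear respiratory factor, was searched as GCGCA, any base, then GCGC, and found in 4 windows, of Dld, Sdha, Sdhd and Sucla2, or 10.5%, against 4.60% of 32851 windows of all genes. The estrogen-related receptor motif TCAAGGTCA was found in 1 window, of Sdhd, or 2.63% against 0.423%. The GATA motif AGATAA was found in the windows of Dld and Pdk4, or 5.26% against 11.2%. The E-box CACGTG was found in 5 windows of Ogdh, Pcx and Pdk2, or 13.2% against 7.15%, and the core ACGTG of hypoxia-inducible factors, which every such E-box also contains, in 15 windows of 10 genes, or 39.5% against 19.6%. Overlapping Ogdh windows repeat the same E-box and ACGTG sites, so these window shares count that gene several times. By gene, the E-box was in 3 and ACGTG in 10 of the 28. The shares over all windows are per window, and the share of all genes was not counted, so these counts by gene have no background here. Windows of the pathway had a median GC content of 61.5%, against 52.7% for all windows. A match is a description of letters and shows no binding.

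The windows of Sdha and Sdhd are shown because the first holds 3 NRF1 matches, the most here, and the second holds an NRF1 and an estrogen-related receptor match. Capitals mark those matches. Both are on the minus strand and read in the direction of transcription, at chr13:74350191-74350490 for Sdha and chr9:50603800-50604099 for Sdhd.
Sdha: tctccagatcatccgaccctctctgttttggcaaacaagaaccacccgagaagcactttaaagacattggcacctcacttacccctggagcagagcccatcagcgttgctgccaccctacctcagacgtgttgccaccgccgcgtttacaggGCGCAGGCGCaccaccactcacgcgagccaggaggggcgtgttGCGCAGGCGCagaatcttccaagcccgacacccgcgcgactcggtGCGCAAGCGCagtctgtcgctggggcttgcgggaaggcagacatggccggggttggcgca
Sdhd: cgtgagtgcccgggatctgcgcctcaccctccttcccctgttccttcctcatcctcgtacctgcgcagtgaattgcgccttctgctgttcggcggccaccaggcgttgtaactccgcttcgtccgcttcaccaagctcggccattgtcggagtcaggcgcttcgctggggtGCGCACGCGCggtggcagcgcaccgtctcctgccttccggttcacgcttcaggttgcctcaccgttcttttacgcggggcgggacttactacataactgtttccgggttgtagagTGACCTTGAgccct
The Sdha and Sdhd levels, 125 TPM and 151 TPM in replicate 1 and 169 TPM and 248 TPM in replicate 2, lay within the bound of each other.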

How the data were processed

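Poly(A) RNA-seq of 2 G1E libraries came as gene and transcript tables, made per library and not pooled. Expected counts were deposited without normalisation and rounded before scaling. TPM was deposited by the authors per effective length over all features. Deposited signal columns give bounds of a credibility interval of unstated level, not used in the results. The deposited percent column is a transcript's share of its gene's TPM. The deposited notes name mm10 and GENCODE M4; no source used here names the aligner, quantifier or strand setting. Names, types and transcripts came from GENCODE M21 of the same assembly (42462 of 43346 genes matched). Entries naming no gene, 0.0363% of counts in replicate 1 and 0.0094% in replicate 2, were left out.

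All 31 members are named; of 3 lists of other pathway genes, the 3 highest and those under 1 TPM are, except 2 genes not reported here. Members and lists were chosen with earlier results of these data known. Mmut was matched as Mut, its name in GENCODE M21. Counts were scaled with TMM (edgeR 4.0.16, R 4.3.3), with 0.5 added; DESeq2 1.42.0 gave alternative factors. The GC trend was a lowess of span 0.3 (statsmodels 0.14.6). Tables were joined in Python 3.11.15 with pandas 2.3.3. The 2-fold call was tested on simulated counts with counting error only, without a GC trend or further spread between libraries. That test does not give the error rate of the call in these libraries. Depth was 31645051 and 56983558 expected counts in replicates 1 and 2; floors cover counting error only.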

Additional observations from a re-analysis of the deposited data

How the results depend on the processing

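No paired analysis was possible because there is 1 group and the replicate numbers pair no groups. The count of expressed genes was 29 at 5 TPM and 30 under the other thresholds and measures. The summed mean TPM of the 31 genes, 3663, was 4584 when rescaled over protein-coding genes and 2610 on complete coding transcripts, and their median of 83.3 TPM was then 105 and 53.8. Leaving out a replicate gave medians of 70.5 to 76.5 TPM, sums of 3335 to 3991 TPM and 8 to 12 pairs beyond the single-library bound of 1.74, the 8 in replicate 2 alone. Pdk3/Pdk2 was -1.89 in replicate 1 alone and 1.84 in replicate 2 alone, and on complete coding transcripts Pdk1/Pdk2 turned to -1.43 and Pdk1/Pdk3 to -1.53; these follow from the library left out and the transcripts counted. No pair of the 23 moved across its bound with posterior mean TPM, rescaled TPM, a pseudocount of 0.1 or the robust bound of 0.98; Pdk3/Pdk2, at -0.02, was 0.003 with posterior mean TPM. The number of genes 2-fold apart ranged from 5 to 7 over 7 alternatives, of which the GC trend, the ratio centred on protein-coding genes and all measures on complete coding transcripts were chosen after seeing the data. Centred so, 5 were apart, against 18.8% of protein-coding genes, and Suclg2 was at -0.96 (log2). By share of counts, 20 of 22 leading transcripts again matched, and Idh3b and Sucla2 differed. Whether a single library shares a leading transcript with the other has no value. With 2 libraries, differences under about 2.35-fold cannot be told from the spread.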
